A study of Arabidopsis thaliana with 32 samples.

Results

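Messenger RNA held on tagged ribosomes was compared with total messenger RNA in Arabidopsis thaliana shoots kept for 1 day without magnesium. The comparison took the 3 shoot TRAP libraries and the 3 shoot total RNA libraries labelled MgD, 6 of the 24 libraries in the deposited table. It covered every gene that passed a filter on low counts, 19341 of the 27655 genes listed. All plants were of the p35S:HF-RPL18 genotype, which carries an epitope-tagged copy of the large-subunit ribosomal protein RPL18 under the 35S promoter. They had grown for 6 weeks in hydroponic culture with 10 h of light and 14 h of dark. For the last 24 h, MgD plants had sodium sulfate in place of magnesium sulfate, and CK plants stayed in normal medium. Total RNA and TRAP RNA thus came from the same genotype, and no library from untagged plants was used here.

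Translating ribosome affinity purification (TRAP) captures ribosomes through the tag and sequences the messages bound to them. The ratio of TRAP to total RNA follows how much of a gene's message sits on tagged ribosomes, relative to the other genes. Chloroplasts and mitochondria translate their own messages on ribosomes that hold no RPL18. Only cells that express the transgene can contribute, so in whole shoots fewer cells with tagged ribosomes and less message on ribosomes within a cell cannot be told apart. The activity of the 35S promoter in each cell type was not measured here.

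The 3 TRAP libraries held between 34278007 and 41472378 counts and the 3 total libraries between 26548284 and 27623934. Pearson correlations of log2 CPM (counts per 1000000) between libraries of a group lay between 0.9852 and 0.991 across genes. The submitters' file names give lane label L002 for the shoot TRAP libraries and L001 for the shoot total libraries, so lane label and RNA type cannot be told apart in shoot. The summed level of 7 rosette leaf markers was 45240 to 52770 CPM in TRAP RNA and 55270 to 59510 CPM in total RNA. In root total RNA it was 282.1 to 572.8 CPM, so the libraries carried the leaf markers of their label. The labels call the replicates independent but name no plant or batch for any of them. The p-values therefore speak of the spread among these libraries alone, part of which may be technical.

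RPL18B, the source of the tagged protein, was the first check of the capture. Its TMM-scaled level (CPM adjusted by edgeR's trimmed mean of M values) was 24390, 28580 and 28300 CPM in the TRAP libraries and 1753, 1937 and 1827 CPM in the total libraries. Every TRAP library lay far above every total library, and RPL18B alone took 2.407% to 2.703% of all TRAP counts. The log2 difference was 3.88 ± 0.12 (SE; edgeR quasi-likelihood test, Benjamini-Hochberg adjusted p = 6.764e-13), or 14.7-fold, and it was the largest rise among genes with a symbol and a mean level of at least 1 log2 CPM. The counts do not separate the transgene's message from that of the endogenous gene. RPL18C, a second gene for the same protein, had 193.3, 213.8 and 223.8 CPM in TRAP RNA and 277.9, 327.1 and 368.8 CPM in total RNA. It was lower in each TRAP library than in any total library (log2 difference -0.63 ± 0.11, edgeR adjusted p = 0.0001796).

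Across all 19341 genes edgeR called 8865 (45.8%), of which 4286 (22.2%) were higher and 4579 (23.7%) lower in TRAP RNA, and the median log2 difference was -0.02. These shares of all genes are the background for every list count under MgD below. Differences of at least 2-fold were called for 713 genes (3.69%) upward and 2263 genes (11.7%) downward. For 10816 genes (55.9%) the 3 TRAP libraries did not overlap the 3 total libraries. The split between directions depended on scaling. With library totals in place of TMM the median moved by -0.149, and 2980 genes were called higher against 5775 lower. Higher calls concentrated among abundant genes. In the quintile of genes with the highest mean level, 45.2% were called higher and 18.6% lower, and in the lowest quintile 2.53% were called higher and 26.3% lower. Across genes, the log2 difference and the mean log2 level had a Pearson r of 0.293 and a Spearman rho of 0.324, given as a description over genes that share the same libraries.

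**Figure D1:**
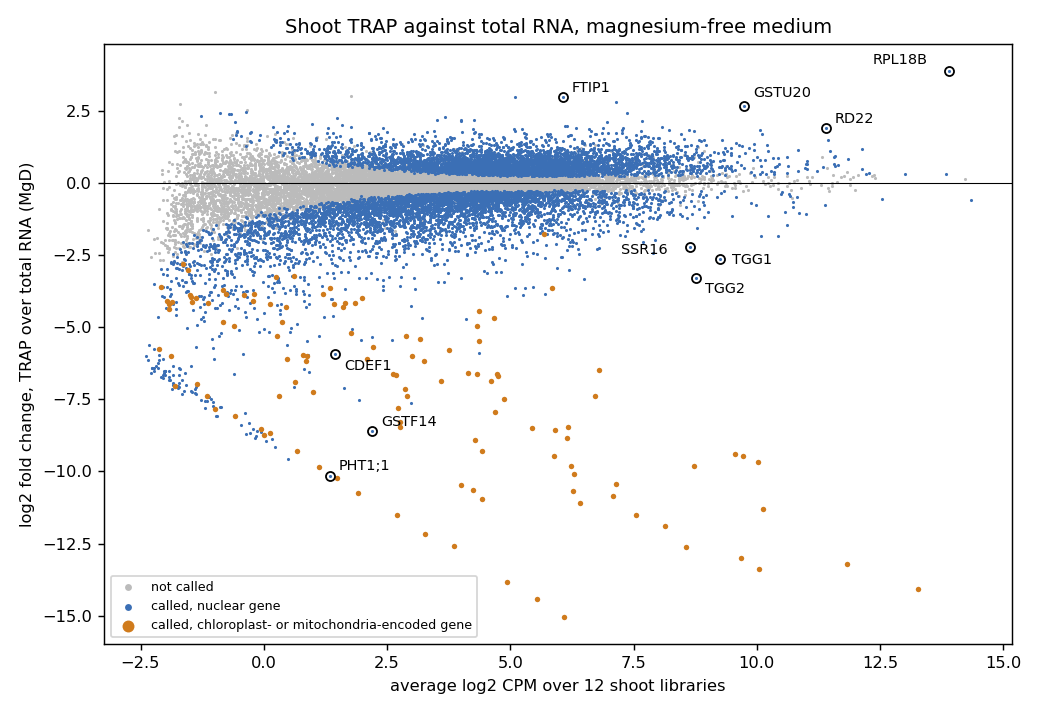
Log2 difference between TRAP and total RNA under MgD (vertical axis) against the average log2 CPM over the 12 shoot libraries (horizontal axis), with 1 point per gene. Called genes are blue, called organelle-encoded genes orange, and RPL18B stands at 3.88, FTIP1 at 2.97 and TGG2 at -3.30, with organelle genes reaching the lowest values.

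Organelle messages were nearly missing from TRAP RNA. Chloroplast-encoded genes made up 3.924%, 5.237% and 4.518% of counts in the total libraries and 0.003424%, 0.003415% and 0.01044% in the TRAP libraries. Mitochondria-encoded genes took 0.02071%, 0.0248% and 0.01846% of total RNA and 0.0003496%, 0.0005236% and 0.0006972% of TRAP RNA. The third TRAP library held about 3 times the chloroplast share of the others, and still lay far below every total library. All 82 measured chloroplast genes were called lower, with a median log2 difference of -8.46. In 16 of them no TRAP library held a count, and with those set to a floor of 3 counts over the group the median was -7.38. Of 37 measured mitochondrial genes 36 were lower, with a median of -4.15. The exception was ATMG00180, which had an edgeR adjusted p of 0.0591.

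The largest rises among nuclear genes with a symbol included several of metabolism and hormone synthesis. FTIP1, a protein of companion cells needed for movement of the florigen FT, had 117.5, 92.83 and 106.7 CPM in TRAP RNA and 13.22, 13.99 and 13.18 CPM in total RNA. The groups were far apart (log2 difference 2.97 ± 0.13, edgeR adjusted p = 3.921e-11). Among the 12 largest rises with a symbol were also GLN1;4, a cytosolic glutamine synthetase (4.94-fold), and YUC8, an enzyme of auxin synthesis (4.77-fold). PUP4, a purine permease, and HMT3, which makes methionine from homocysteine, both rose 4.60-fold. The jasmonate-modifying sulfotransferase ST2A (log2 difference 2.19 ± 0.43), the defence priming gene AZI1 (2.15 ± 0.51) and the glucosyltransferase UGT73B3 (4.00-fold, log2 SE 0.45) rose with wider errors. RD22, a dehydration response gene, had 3923, 4949 and 4881 CPM in TRAP RNA and 1101, 1159 and 1408 CPM in total RNA. Its groups were wide apart (1.91 ± 0.14), and it was among the 6 largest rises with a symbol at a mean level of at least 8 log2 CPM.

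Glucosinolates are the sulfur-rich defence compounds of the cabbage order, made from methionine or tryptophan and cleaved by myrosinases when tissue is damaged. Genes of their synthesis stood higher in TRAP RNA almost throughout. Of 35 measured, 30 were called higher and 2 lower, against 22.2% and 23.7% of all genes, and 25 of the 30 were at least 2-fold higher. The median log2 difference was 1.43. Under CK, in libraries of their own, 30 were higher and 1 lower, with a median of 1.45.

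In the methionine pathway the chain is first lengthened. BCAT4, the aminotransferase that opens this cycle, had 377.9, 332 and 336.2 CPM in TRAP RNA and 63.65, 98.47 and 74.99 CPM in total RNA. MAM1, the synthase that adds the carbon, had 459.4, 441 and 450.8 CPM against 86.97, 131 and 132.9 CPM, and the isomerase subunit IPMI2 had 255.8, 295.2 and 330.7 CPM against 42.3, 56.07 and 66.09 CPM. In all of these genes the lowest TRAP library exceeded the highest total library more than 2-fold. The log2 differences were 2.14 ± 0.21 for BCAT4 (edgeR adjusted p = 5.932e-06), 1.95 ± 0.20 for MAM1 and 2.42 ± 0.21 for IPMI2.

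The core structure is then built by cytochromes P450, glutathione transferases and sulfotransferases. CYP83A1, which oxidises the aldoximes of the methionine branch, had 1737, 1610 and 1666 CPM in TRAP RNA and 388.7, 527.7 and 496.7 CPM in total RNA (log2 difference 1.83 ± 0.13, edgeR adjusted p = 1.475e-08). GSTU20, a glutathione transferase assigned to the same branch, had 1449, 1538 and 1704 CPM against 182.6, 269.6 and 286.3 CPM (2.67 ± 0.18, edgeR adjusted p = 2.982e-08). Both genes separated the groups with a wide gap, and the rise was not confined to the methionine branch. CYP79B2, which starts the tryptophan branch, rose by 1.90 ± 0.15 and CYP83B1 by 1.38 ± 0.13. CYP79F1 rose by 1.82 ± 0.28, and its close copy CYP79F2 by 1.43 ± 0.17, though reads of the pair may be shared. APK1, a kinase that supplies the sulfate donor, rose by 1.84 ± 0.12, GGP1, a peptidase of the pathway, by 1.54 ± 0.11, and the sulfotransferase SOT17 by 1.75 ± 0.21.

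The MYB transcription factors of the pathway were called in both directions. MYB28, which activates the methionine branch, had 53.85, 57.4 and 59.83 CPM in TRAP RNA and 79.9, 82.15 and 93.67 CPM in total RNA, with no overlap (log2 difference -0.58 ± 0.12, edgeR adjusted p = 0.001046). MYB34, of the tryptophan branch, fell by 0.64 ± 0.20 (edgeR adjusted p = 0.0185) and had -0.05 under CK. MYB29 rose by 0.56 ± 0.14 (edgeR adjusted p = 0.003912). MYB51 (0.69) and MYB76 (0.40) did not pass. MYB28 missed the threshold when all 24 libraries were fitted together (adjusted p 0.05194), and MYB34 also without the first TRAP library (0.06811) or the first total library (0.07655).

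The classical myrosinases stood at the opposite end. TGG1 and TGG2, the myrosinases of leaf myrosin idioblasts and guard cells, were among the 6 largest falls with a symbol at a mean level of at least 8 log2 CPM. TGG1 had 179.3, 172.1 and 184.2 CPM in TRAP RNA and 1384, 938.5 and 990.9 CPM in total RNA (log2 difference -2.63 ± 0.17, edgeR adjusted p = 2.704e-08). TGG2 had 89.96, 69.21 and 79.87 CPM against 992.3, 667.2 and 699.4 CPM (-3.30 ± 0.16, edgeR adjusted p = 3.478e-10). No TRAP library came within a factor of 5 of any total library for either gene. Other hydrolysis genes went the other way, such as the atypical myrosinase PEN2 (0.75 ± 0.09) and the specifier proteins ESP (0.82 ± 0.12) and NSP1 (0.88 ± 0.13), which direct the breakdown products. The 11 measured hydrolysis genes were 4 higher and 3 lower, and NSP4 was the remaining fall (-3.27 ± 0.46).

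**Figure D2:**
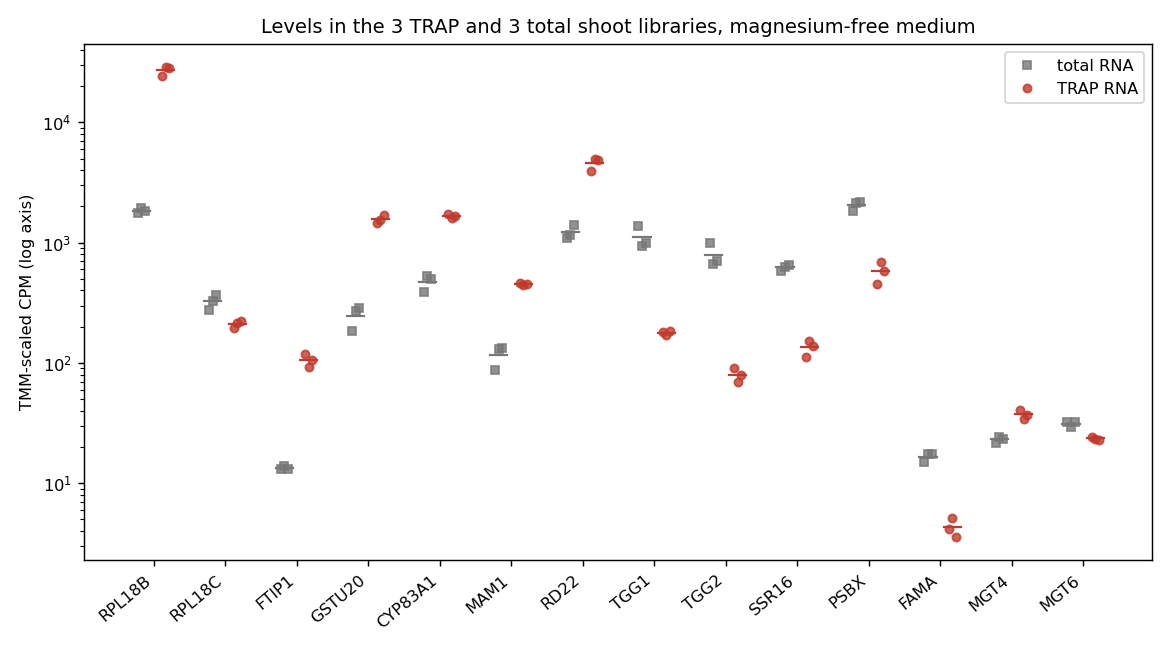
TMM-scaled CPM on a log axis for 14 genes in the 3 total libraries (grey squares) and the 3 TRAP libraries (red circles) under MgD, with bars at the group means. Glucosinolate genes such as GSTU20 (1449 to 1704 CPM in TRAP, 182.6 to 286.3 in total RNA) and the myrosinases TGG1 and TGG2 separate in opposite directions. MGT4 is 1.6-fold higher and MGT6 1.3-fold lower in TRAP RNA.

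Genes listed for guard cells and the stomatal lineage were mostly lower in TRAP RNA. Of 25 measured, 17 were lower and 2 higher, with a median log2 difference of -1.21, and 15 were at least 2-fold lower. FAMA, which drives the last step of guard cell fate, had 4.153, 5.168 and 3.605 CPM in TRAP RNA and 15.1, 17.35 and 17.44 CPM in total RNA (-1.95 ± 0.20, edgeR adjusted p = 6.008e-07). SPCH, which starts the lineage, had 0.733, 0.4921 and 0.55 CPM against 3.289, 3.039 and 3.26 CPM (-2.42 ± 0.33, edgeR adjusted p = 1.512e-05). The groups did not overlap for either gene, although SPCH rests on 16 to 30 counts per TRAP library. SDD1, a protease of stomatal spacing, fell by 4.01 ± 0.68 and the receptor protein TMM by 1.77 ± 0.21. The list also holds EPFL9 (-2.02 ± 0.19), a gene of 102 residues for a peptide that signals to the lineage and does not mark it. The members that rose were CYP86A2 (1.08 ± 0.15) and GPAT4 (0.69 ± 0.13), cutin enzymes of the whole epidermis, though GPAT4 missed the threshold when all 24 libraries were fitted together (adjusted p 0.08778). CYP86A2 alone had 748.9, 656.7 and 610.1 CPM in TRAP RNA, and the list's summed level was higher there, 823.6 to 1013 CPM against 597.7 to 701.7 CPM.

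Trichome regulators showed a like count, with 8 of 15 lower, 2 higher and a median of -1.21. The homeobox gene GL2 fell by 2.08 ± 0.44 and the inhibitor TRY by 1.82 ± 0.19. GL1 had 0 CPM in all TRAP libraries and 0.8552, 0.2827 and 1.347 CPM in total RNA, at least 32.5-fold lower against the floor of 3 counts over the TRAP group. The epidermis and cuticle list as a whole went upward, 15 of 34 higher and 6 lower (median 0.45). LTPG1, a lipid transfer protein of the cuticle, rose by 1.51 ± 0.12, and CER6, which elongates wax precursors, by 1.33 ± 0.20, while PDF1, a gene of the outermost cell layer, fell by 1.62 ± 0.20 and DCR, a cutin acyltransferase, by 1.49 ± 0.17.

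Vascular lists had no called fall. Of 19 phloem and companion cell genes 10 were higher, among them the sucrose exporters SWEET11 (1.06 ± 0.19) and SWEET12 (1.29 ± 0.35), and the median was 0.44. Of 17 xylem genes 8 were higher (median 0.38), such as the wall laccase IRX12 (0.66 ± 0.12), and 5 were with library totals, with all 24 libraries in one model or without the third TRAP library. The summed levels overlapped in neither list, 1138 to 1274 CPM in TRAP against 885.1 to 919.1 CPM in total RNA for phloem and 232 to 269.7 against 177.5 to 207.4 CPM for xylem.

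Some of the largest falls were genes that are abundant in roots. PHT1;1, a phosphate transporter, had 0 counts in all 3 TRAP libraries and 5.395, 5.865 and 3.615 CPM in the total libraries. Against the floor it was 195-fold lower. Most low counts were even, as when mates are counted singly, so this value is no lower bound. GSTF14, a glutathione transferase, had 0, 0 and 2 counts in TRAP RNA and 9.21, 9.858 and 8.009 CPM in total RNA. CASP1, which builds the Casparian strip, and IRT1, an iron transporter, were also at 0 in TRAP RNA and stood at 0.4253 to 0.848 and 0.7237 to 1.767 CPM in total RNA.

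Altogether 99 tested genes had no count in any TRAP library and more than 3 in total RNA, 79 of them nuclear. Of these 79, 57 were more abundant in root total than in shoot total RNA, beside 69.8% of all nuclear genes tested. At least 10 times higher in root were 45 of the 79, compared with 6.34% of all nuclear genes tested. The 79 had a median of only 0.591 CPM in shoot total RNA. No share was taken among genes of a like low level, so these shares are not like for like. No tested gene had the reverse pattern of 0 counts in every total library and more than 3 in TRAP RNA. Of 20 root markers 12 were at 0 in all TRAP libraries and 2 in all total libraries. Only 10 of the 20 passed the filter on low counts, and 3 of these 10 were among the 99 of 19341 tested genes. Fewer genes had a count in the TRAP libraries, 20132 to 20236, than in the total libraries, 21324 to 21365. No share at 0 was taken over all listed genes. The summed levels of the 20 markers nevertheless overlapped, 110.9 to 158.6 CPM in TRAP and 130.8 to 137.5 CPM in total RNA, against 3995 to 7077 CPM in root total RNA. The part of root RNA in the shoot total libraries was not tested.

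The remaining large falls were of mixed function. CDEF1, a cutinase gene, had 0.1955, 0.06152 and 0 CPM in TRAP RNA and 4.474, 4.487 and 8.647 CPM in total RNA (-5.92 ± 0.57). PLDGAMMA2, a phospholipase D, fell by 3.56 ± 0.28 and PRP2, a proline-rich cell wall protein, by 3.09 ± 0.15. The 12 largest falls were taken among genes with a symbol, a mean level of at least 1 log2 CPM and no overlap. Genes known by locus alone, such as AT3G08520 of 25 residues (-3.86), were left out of this ranking. Of the 12, 4 encode at most 100 residues, namely CDT1 (cadmium tolerance 1, 62 residues, -3.26 ± 0.27), BNS (63 residues, -3.25 ± 0.61), PDX1L4 (79 residues, -3.30 ± 0.45) and COX19-2 (98 residues, -2.87 ± 0.27). AT7SL-1 (-3.09 ± 0.21), annotated as a gene for 7SL RNA of the signal recognition particle, completed the 12 with TGG2, SDD1, PHT1;1 and GSTF14.

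The length of the encoded protein went with the TRAP to total difference over the whole set. In the shortest quintile of genes, 8 to 216 residues, the median was -0.58, with 48.0% called lower and 9.54% higher. The next quintiles had medians of 0.09, 0.19 and 0.17, and the longest quintile, 630 to 5400 residues, had -0.12 with 25.3% lower and 13.9% higher. Among 708 genes of at most 100 residues 76.0% were lower and 0.424% higher (median -1.53). The next genes up to 150 residues had a median of -0.76 and those up to 200 residues -0.29. Among abundant and among rare genes alike the shortest quintile had the lowest median. Within the most abundant quintile of genes the length medians were -0.31, 0.34, 0.47, 0.41 and 0.12, and within the least abundant quintile -0.96, -0.26, -0.28, -0.20 and -0.56. Upstream reading frames in the annotated leader moved the median little, from 0.01 with none to -0.04 with 4 or more.

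Ribosomal protein genes, which are short, were largely lower. The list of cytosolic ribosomal proteins, with a median of 130 residues, had 67 measured members, 49 lower and 5 higher, RPL18B among the 5, and a median of -0.82. All genes between 100 and 150 residues were called lower in 56.5% of cases. AT3G08520, a gene for L41 with a protein of 25 residues, had 6.426, 6.582 and 7.028 CPM in TRAP RNA and 95.26, 93.7 and 101.5 CPM in total RNA. It separated the groups more than 10-fold (-3.86 ± 0.10, edgeR adjusted p = 4.156e-14), and all 5 genes for L41, near-identical copies chosen after their values were seen, were lower by 3.33 to 5.03. A wider reading of product names, also chosen after values were seen, took in 272 genes, of which 157 were lower and 33 higher (median -0.53). SSR16, a small-subunit protein of organelle-type ribosomes, was among the 6 largest falls at a mean level of at least 8 log2 CPM with a symbol. It had 112.5, 152.9 and 137.7 CPM in TRAP RNA and 584.9, 632.3 and 653.5 CPM in total RNA (-2.21 ± 0.11, edgeR adjusted p = 2.646e-10).

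Nuclear genes of the photosystems and their antennae divided by size. Of 49 measured, 8 were higher and 15 lower (16.3% and 30.6%, beside 22.2% and 23.7% of all genes), with a median of 0.00. Those of at most 200 residues were 11 lower and 0 higher of 16 (median -0.64), and the 33 longer ones were 8 higher and 4 lower (median 0.22). PSBX, a small photosystem II subunit of 116 residues, had 455.4, 690.7 and 579.5 CPM in TRAP RNA and 1830, 2116 and 2169 CPM in total RNA (-1.83 ± 0.13, edgeR adjusted p = 1.446e-08). LHCB2.2, an antenna protein of 265 residues, had 3277, 4371 and 3877 CPM against 2202, 2554 and 2632 CPM (0.64 ± 0.12, edgeR adjusted p = 0.0003929), though the LHCB2 copies may share reads. The groups were separate for both genes, in opposite directions. Also lower were PSAE-1 (-1.56 ± 0.13) and PSAG (-1.23 ± 0.13) of photosystem I and PSBW of photosystem II (-1.02 ± 0.13), and higher were PSBO2 (0.60 ± 0.11) of the oxygen-evolving complex and PSAL (0.55 ± 0.12). Over the 49 genes protein length and log2 difference had a Pearson r of 0.75 and a Spearman rho of 0.74, as a description. The count of 8 higher members was 17 without the first TRAP library, 5 without the second TRAP library, 5 without the first total library, and 0 with all 24 libraries in one model.

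**Figure D3:**
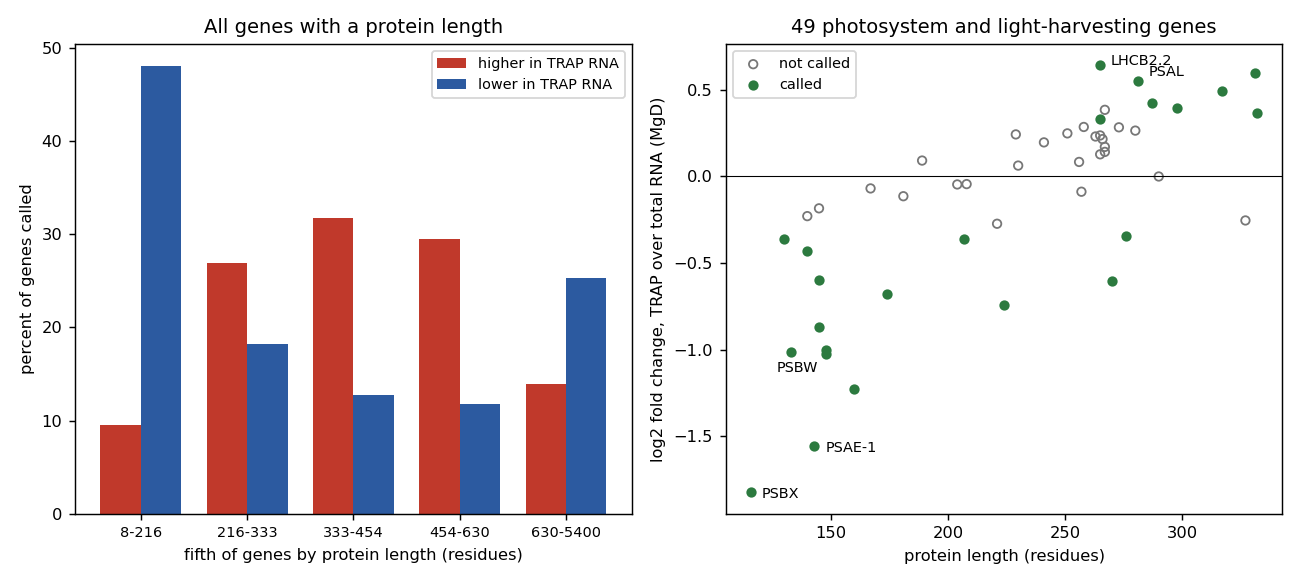
Left, percent of genes called higher (red) or lower (blue) in TRAP RNA in quintiles of protein length in residues. Right, log2 difference under MgD against protein length for 49 photosystem and light-harvesting genes, with called genes filled. The shortest quintile has 48.0% lower calls, and PSBX of 116 residues is the lowest of the 49 at -1.83.

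Genes of carbon fixation were called in both directions. The Rubisco small subunit genes RBCS1B (-1.15 ± 0.16), RBCS2B (-1.08 ± 0.13) and RBCS1A (-0.60 ± 0.11), which are close copies of 180 and 181 residues, were lower. RBCS1A missed the threshold when all 24 libraries were fitted together (adjusted p 0.1695). GAPA, the chloroplast glyceraldehyde phosphate dehydrogenase, was higher (0.59 ± 0.10), and RPE, a longer Calvin cycle enzyme of 281 residues, was lower (-0.64). Among 19 genes of the Calvin cycle 5 were higher and 7 lower (26.3% and 36.8%, beside 22.2% and 23.7% of all genes). The 5 became 0 when all 24 libraries were fitted together and 8 or 3 without the first or the second TRAP library. Histone genes had 10 of 19 lower and 3 higher (median -0.27), including HIS4 (-1.51 ± 0.15) and HTA8 (-1.94 ± 0.27). SAUR genes, short auxin-induced messages with a median of 93 residues, had 8 of 15 lower and 0 higher (median -0.84), a count of 5 with all 24 libraries in one model and without the first TRAP, the third TRAP or the third total library.

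Lists of other housekeeping proteins differed. Translation factors had 4 of 28 higher and 6 lower (median -0.05). These were 14.3% and 21.4%, beside 22.2% and 23.7% of all genes. The proteasome, which degrades ubiquitin-tagged proteins, had 29 of 37 subunit genes higher and 0 lower (median 0.64). RPN8A, a lid subunit, had 201, 186.2 and 192.2 CPM in TRAP RNA and 80.33, 86.04 and 89.24 CPM in total RNA (1.18 ± 0.09, edgeR adjusted p = 2.841e-08), and RPN10, a ubiquitin receptor, rose by 1.08 ± 0.09. The groups did not overlap for RPN8A. Tubulin, actin and related genes had 18 of 27 higher and 1 lower (median 0.44), led by TUB8 (1.75 ± 0.15) and including TUB6 (1.15 ± 0.11).

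Membrane channels for water were higher as well. Of 24 aquaporin genes 18 were higher and 1 lower, with a median of 0.63. PIP2A, a main channel of the plasma membrane, had 4436, 4427 and 4110 CPM in TRAP RNA and 2574, 2569 and 2123 CPM in total RNA (0.84 ± 0.12, edgeR adjusted p = 3.518e-05). Its TRAP libraries all lay above its total libraries. TIP2;2, of the vacuole membrane, rose by 1.51 ± 0.14 and PIP1C by 1.11 ± 0.14. The fall was TIP2;3, with no TRAP count and 0.8552, 2.261 and 1.063 CPM in total RNA.

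The list of cell wall expansion held calls in both directions. Of its 51 measured genes 21 were higher and 10 lower (41.2% and 19.6%, beside 22.2% and 23.7% of all genes). Of the 10, 7 were arabinogalactan proteins, whose share among all 51 was not taken. Among all genes of at most 100 residues, the size class of AGP12, 76.0% were called lower. The expansins EXPA4 (1.91 ± 0.17) and EXPA8 (1.91 ± 0.19) and the xyloglucan hydrolase gene XTH7 (1.46 ± 0.13) were among the rises, and AGP12, of 60 residues, fell by 2.57 ± 0.25. Auxin response genes had 22 of 40 higher and 3 lower (median 0.47), including the repressor gene IAA14 (1.22 ± 0.11) and the carriers LAX3 (1.31 ± 0.14) and PIN3 (1.05 ± 0.10).

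**Figure D4:**
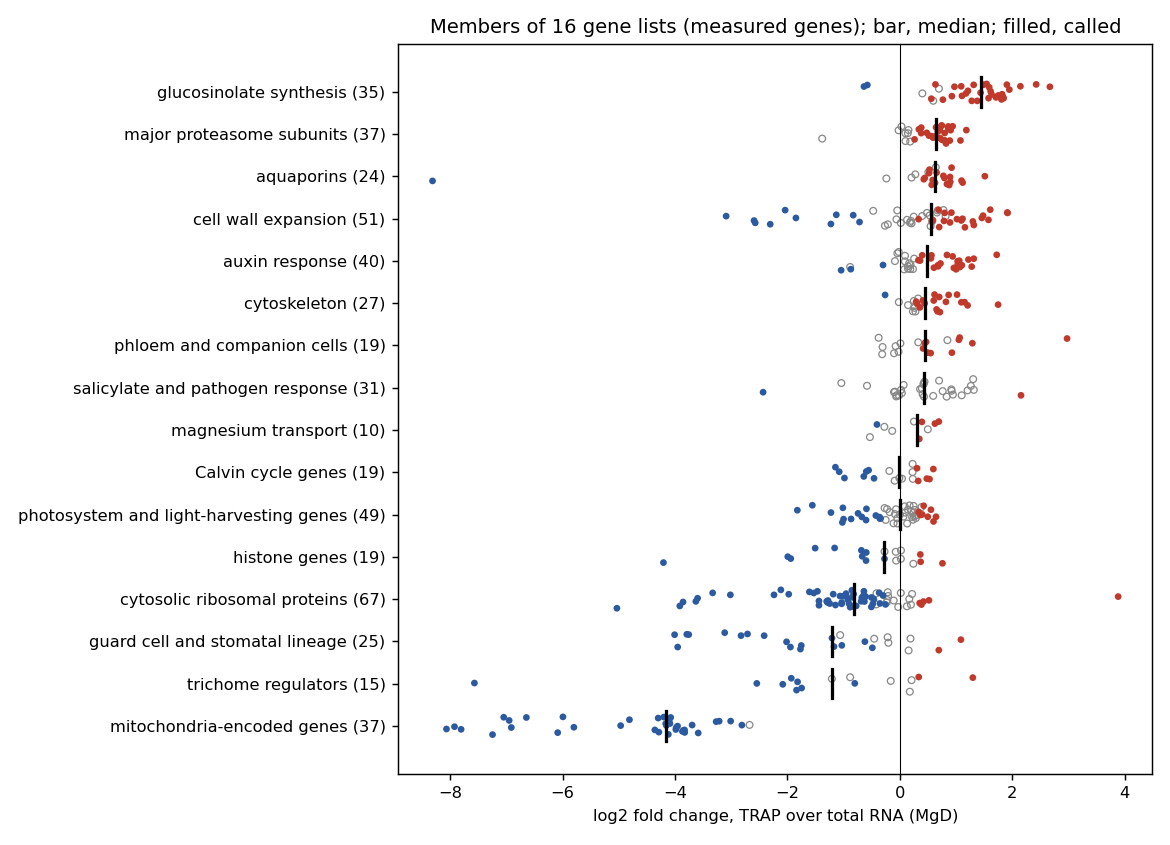
Log2 difference between TRAP and total RNA under MgD for the measured members of 16 gene lists, 1 point per gene, red for called higher, blue for called lower and open for not called, with a black bar at the median of each list. Medians run from 1.43 for glucosinolate synthesis to -4.15 for mitochondria-encoded genes.

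Magnesium carriers differed little between the RNA types. Of 10 measured genes 4 were higher and 1 lower, with a median of 0.30 and no difference of 2-fold. MGT4 had 40.9, 34.39 and 37.09 CPM in TRAP RNA and 21.78, 24.31 and 23.53 CPM in total RNA (0.69 ± 0.11, edgeR adjusted p = 7.101e-05), and it had 0.78 under CK. MHX, a vacuolar exchanger of magnesium and zinc for protons, had 40.75, 40.23 and 49.25 CPM against 33.09, 33.88 and 35.65 CPM (0.34 ± 0.10, edgeR adjusted p = 0.01188). MGT6, a transporter for magnesium uptake in roots, had 24.43, 23.5 and 22.79 CPM against 32.27, 29.43 and 32.21 CPM (-0.41 ± 0.11, edgeR adjusted p = 0.004286). None of these genes had overlapping groups. MGT9 (0.62 ± 0.20, edgeR adjusted p = 0.01617) and the chloroplast transporter MGT10 (0.39 ± 0.10, edgeR adjusted p = 0.005457) were higher too. MGT1 (0.50 ± 0.23), MGT2 (-0.14 ± 0.10), MGT3 (0.25 ± 0.15), MGT7 (-0.28 ± 0.42) and CNGC10 (-0.53 ± 0.40) did not pass. The 4 higher calls became 1 with library totals in place of TMM. Without the third TRAP library they became 2, with adjusted p-values of 0.1516 for MGT9 and 0.1036 for MHX, and MGT9 also missed the threshold without the third total library (0.05214) and MHX without the first (0.05351). MHX also missed it when all 24 libraries were fitted together (0.1641). In chlorophyll synthesis, the main user of magnesium chelatase, 3 of 21 genes were higher and 2 lower. The chelatase subunit gene GUN5 was lower (-0.48 ± 0.09, but adjusted p 0.09112 in the fit of all 24 libraries) and CHLI1 higher (0.49 ± 0.11).

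The same comparison in normal medium had no library in common with the one under MgD. Under CK edgeR called 8677 genes (44.9%), 4118 (21.3%) higher and 4559 lower, and 743 (3.84%) were at least 2-fold higher. Genes called higher in both numbered 3414, which is 79.7% of the MgD calls and 82.9% of the CK calls. Genes called lower in both numbered 3670, or 80.1% and 80.5%, and 1 gene was called in opposite directions. Over 19222 nuclear genes the log2 differences of the 2 comparisons had a Pearson r of 0.874 and a Spearman rho of 0.862, as a description across genes.

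Whether the TRAP to total difference changed with magnesium was tested directly as an interaction, and no gene of 19341 passed in edgeR (0, or 0.0%), DESeq2 (0) or limma (0). In edgeR 764 genes had an unadjusted p under 0.05, fewer than the 967.1 that a uniform spread of p-values gives. How large a change this test could find with 3 libraries per group was not measured. IAA29, an auxin response repressor, was among the 3 genes of smallest p. It had 5.961, 11.07 and 7.028 CPM in TRAP RNA and 1.908, 2.685 and 2.693 CPM in total RNA under MgD, a log2 difference of 1.72 ± 0.30 against 0.09 under CK. Its interaction did not pass after adjustment. The others were AT1G76020 (0.33 under MgD, -0.34 under CK) and AT2G36026 (-0.60 and -2.54). MHX had 0.34 under MgD and -0.09 under CK, and its interaction did not pass.

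**Figure D5:**
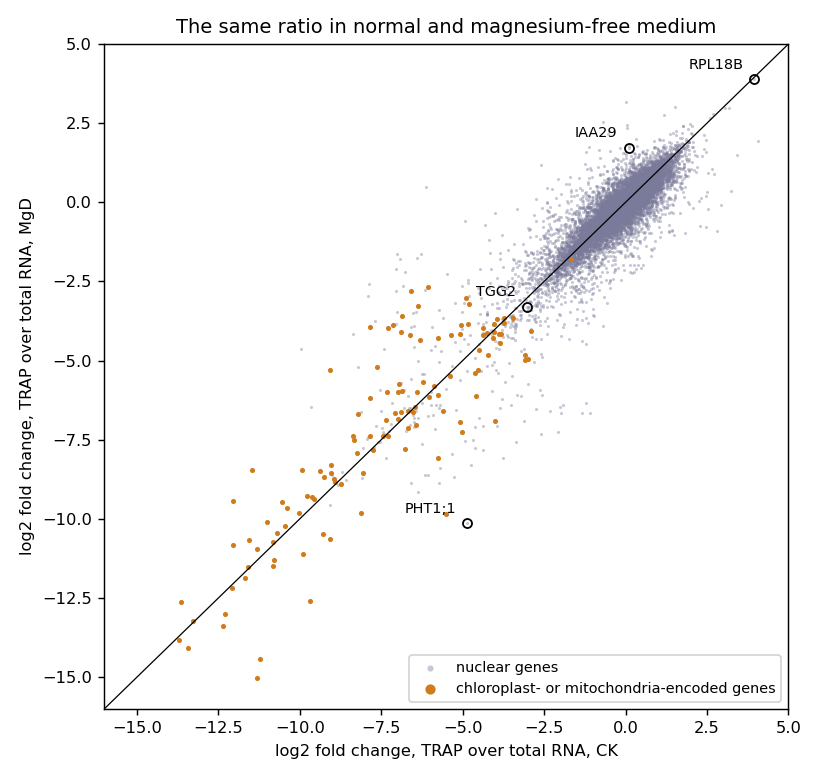
Log2 difference between TRAP and total RNA in normal medium (CK, horizontal axis) and without magnesium (MgD, vertical axis), 1 point per gene, with organelle-encoded genes in orange and the line of equal values. RPL18B lies at 3.95 and 3.88, on the line, and IAA29 lies above it at 0.09 and 1.72.

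Root libraries, which all carry lane label L001, served for contrast. The shoot TRAP libraries still carry L002, so lane label and tissue cannot be told apart in this contrast. The shoot difference was tested against the root difference in a model of all 24 libraries, which called 6563 of 21163 genes (31.0%), 2811 (13.3%) with a higher value in shoot and 3752 (17.7%) with a lower one, and 1845 (8.72%) at least 2-fold higher. This split turned with scaling, with 5360 higher and 1964 lower by library totals, which moved the median by 0.411. RPL18B had 2.99 in root and 3.88 in shoot. Glucosinolate synthesis genes had a root median of 0.42, and 22 of 36 had a higher value in shoot and 0 a lower one. Photosystem genes had a root median of 1.88 beside 0.00 in shoot, with 39 of 49 lower in shoot, and cytosolic ribosomal proteins 0.05 beside -0.82, with 48 of 68 lower. Chloroplast-encoded genes were less depleted in root, at a median of -3.77, and 46 of 82 were lower in shoot. RD22 had -0.63 in root and 1.91 in shoot, and SSR16 0.73 and -2.21. By protein length, the root medians were -0.19 in the shortest and -0.21 in the longest quintile of genes, and -1.13 for genes of at most 100 residues. The difference from shoot in this pattern was not tested.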

How the data were processed

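Polyadenylated RNA libraries were made with the KAPA mRNA HyperPrep kit, per the labels' protocols. The authors named FastQC, Trimmomatic, STAR 2.7.6a and Subread 2.0.0, per the submitters' processing notes, and the sources used here name no genome build. The deposited table gives raw read counts per gene. Between 86.92% and 91.75% of the counts from 1 to 20 in the 6 MgD libraries were even, as when mates are counted singly. Intervals and floors are therefore too narrow even for counting error. The TPM values that the authors deposited, which sum to 1000000 per library, served for alternatives only. The TPM and count columns of Root Total MgD replicate 3 came from different read totals. Another 8 samples, described by the labels as removed, were not analysed here, and 0 other columns were left aside.

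Genes passing filterByExpr were scaled by TMM and tested two-sided by robust quasi-likelihood F tests in edgeR 4.0.16 (R 4.3.3), at a Benjamini-Hochberg adjusted p of 0.05. The 12 shoot libraries, 4 groups of 3, formed one model. A second model of all 24 libraries gave root values and the shoot against root test. The MgD comparison was also run on simulated counts in which all other genes were unchanged. It recovered 60% of 100 genes changed 2-fold and 92% of 100 changed 4-fold, with 7 false calls. The interaction was not simulated. Chi-square per degree of freedom between replicates was at least 17.04, so none was counted as a copy. Symbols, protein lengths and leaders came from RefSeq (assembly TAIR10.1) by locus, and 1032 of 1071 list entries matched a gene in the table.

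Genes were named by rule: the 12 largest rises and falls with a symbol, a mean of at least 1 log2 CPM and no overlap, the 6 largest at 8 log2 CPM or more, the magnesium list, up to 4 members per list by adjusted p, and the 6 largest per direction against root. Genes named from a list beyond those 4 were chosen after their values were seen. The members and lists were chosen with earlier results of these data known, and entries whose symbol belonged to another gene were removed by identity.

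The deposited library table gives original library numbers. The labels do not say whether TRAP and total libraries of the same number share tissue. Within MgD, the 2 pairs of the same original number had deviations from group means correlated at 0.223 and 0.323, and within CK at 0.235 and 0.333. Title numbers gave 0.156, -0.054 and 0.323 for MgD and 0.184, -0.27 and 0.05 for CK, where 0.323 is the same pair by both numberings. Pairs within a treatment that shared no original number ran from -0.375 to 0.184, below every pair that did. Whether the libraries are paired was not tested, and the main model holds no replicate block. Alternatives were RLE scaling, library totals, other filters, DESeq2 1.42.0, limma 3.58.1 on log2(TPM + 1) and log2(TPM + 0.1), halved counts, exclusion of organelle genes or RPL18B, a test against a 1.5-fold change, replicate blocks, other sets of libraries and leaving out each library.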

Additional observations from a re-analysis of the deposited data

Results flagged for a closer look

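The TRAP to total difference under MgD was not the same in shoot and root for 6563 genes, by the test of that difference in the edgeR model of 24 libraries. Lane label differs with RNA type in shoot and not in root, so it cannot be told apart from tissue here. Levels here are mean CPM as scaled in that model, in the order shoot TRAP, shoot total, root TRAP and root total RNA. In each of the 12 genes with the largest differences, at least 1 group mean was below 1 CPM, so these are genes close to absent from 1 tissue or 1 RNA type.

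Values lower in shoot came from genes of mostly root-abundant RNA. PHT1;1, a phosphate transporter, had 0, 5.93, 478.9 and 833.9 CPM, with a fitted difference of -9.47. BGLU21, a beta-glucosidase, had 0, 3.94, 76.8 and 402 CPM (-7.29), and GSTF14 had 0.0247, 10.8, 399.5 and 1617 CPM (-6.60). The P450 gene CYP702A5 (-6.46) and the acyltransferase gene BIA1 (-5.51) were also at 0 in shoot TRAP RNA. Fitted values against a group at 0 depend on the prior count and are no bound. NSP4, a nitrile specifier protein, was the gene of the 6 with opposite signs in the tissues, with 0.357, 3.38, 134.2 and 13.6 CPM (-6.57).

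Values higher in shoot came from genes nearly absent from root TRAP RNA. ELI3-1, annotated as cinnamyl alcohol dehydrogenase 7, had 320, 180.1, 0 and 0.658 CPM (7.51). EXPA11, an expansin, had 208.2, 74.7, 0.29 and 9.18 CPM (6.35), and CER4, an alcohol-forming enzyme of wax synthesis, had 15.4, 7.45, 0.0786 and 3.16 CPM (6.25). LrgB (6.81), GER3 (6.65) and PnsB1 (6.38) completed the 6. All were at 0 in root TRAP RNA, and in root total RNA they had only 0.92, 1.44 and 0.312 CPM. Their highest root total level was in Root Total MgD replicate 3, a library of 6147531 counts beside 29502247 and 17002677 in the other replicates. The part of RNA from the other tissue in these values was not tested.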

How the results depend on the processing

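The count of 8865 genes under MgD stayed between 7496 and 9772 under every alternative that kept the test against no change, and the CK count between 7438 and 9266. Against a 1.5-fold change, a stricter question by construction, the counts were 2983 and 2848. Leaving out each library gave 7496 to 8083 genes for MgD, 7438 to 8581 for CK, 0 to 1 for the interaction (1 without Shoot TRAP CK replicate 3) and 5623 to 6131 for shoot against root. The replicate block by title number gave 9291, 9048 and 2 genes for MgD, CK and the interaction. With the block by original number, where CK and MgD libraries of the same number shared a term, the counts were 9772, 9266 and 0. The block by original number also moved called-higher counts of lists by over 1.5 times, from 11 to 18 for WRKY factors, 12 to 19 for NAC factors, 6 to 11 for cysteine-rich kinases, 7 to 11 for heat shock genes, 5 to 8 for receptor-like proteins and 7 to 16 for secretory chaperones, and clock genes called lower went from 5 to 9 under both blocks. Among lists with at least 4 calls it changed no other count by that much. No block was run for shoot against root.

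Shoot against root moved to 10119 genes with limma on log2(TPM + 1), of which 8286 were higher in shoot, and 3 genes reversed there: BGLU21 (1.52), CYP702A5 (1.25) and BIA1 (0.96). The cause was not tested. Of 266 genes named or listed under MgD, 0 reversed under any alternative, and 92 missed the threshold under at least 1, the 1.5-fold test included. Over alternatives other than the 1.5-fold test, list counts ranged from 30 to 32 higher for glucosinolate synthesis, 44 to 52 lower for cytosolic ribosomal proteins, 15 to 19 lower for guard cell genes, 25 to 29 higher for the proteasome, 14 to 20 higher for aquaporins and 1 to 4 higher for magnesium transport. Depth limits SPCH, SDD1 and other genes near 1 CPM.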

Other observations

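Stress and regulator lists not described above differed in how many members passed. Of 30 jasmonate and wound response genes 12 were higher and 0 lower in TRAP RNA (median 0.53), including the cyclase gene AOC3 (1.28 ± 0.18) and the receptor gene COI1 (0.63 ± 0.09). Of 31 salicylate and pathogen response genes 1 was higher and 1 lower, though their median was 0.42. The single fall was PCC1, a protein of 81 residues with 75.86, 89.54 and 58.76 CPM in TRAP RNA and 352.8, 493.3 and 365 CPM in total RNA (-2.43 ± 0.21, edgeR adjusted p = 1.752e-06). Sulfate uptake and assimilation genes were 13 higher and 1 lower of 25 (median 0.47), with the sulfite reductase gene SIR at 0.85 ± 0.11 and the root uptake gene SULTR1;2 at -1.99 ± 0.30.

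In genes with conserved upstream reading frames, a short peptide ahead of the main frame can hold back translation. Of 28 such genes 12 were lower and 6 higher (42.9% and 21.4%, beside 23.7% and 22.2% of all genes), with a median of -0.40. BZIP53 (-0.98 ± 0.11), SAC51 (-0.89 ± 0.17) and TPPF (-2.26 ± 0.28) were lower, and the polyamine oxidase genes PAO2 (0.38) and PAO3 (0.49) higher. Under CK 8 of the 28 were lower and 6 higher (median -0.02), and no interaction passed. Of all 19341 genes, 4559 were lower and 4118 (21.3%) higher under CK. The list's share of lower calls was thus nearer to that of all genes under CK than under MgD. Under MgD, MYB factors were 21 lower and 2 higher of 65 (32.3% and 3.08%), and NAC factors 1 lower and 12 higher of 56 (1.79% and 21.4%). Among all genes the shares were 23.7% lower and 22.2% higher. For the NAC factors the 12 became 6 with library totals and 19 with the block by original number.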
